A study of Mus musculus with 12 samples.

Results

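The 38 genes described here encode histone lysine methyltransferases and demethylases of the mouse. They were taken by symbol from a list, 24 methyltransferases and 14 demethylases, out of 57180 genes in the transcript-to-gene table, and each symbol matched 1 gene. The rule itself uses symbols and no expression value, though the list was drawn up with earlier results of these data known. The RNA came from the E14 DOX-CRISPRi line, a mouse embryonic stem cell (ESC) clone in which doxycycline (DOX) switches on a catalytically dead Cas9 fused to a transcriptional repressor, placed at the Tigre locus. Guide RNAs bring this repressor to a start site and lower transcription there (CRISPR interference). The Neg cells carry 4 scramble guides, and the 3xKD cells carry guides against *Pcx*, *Me1* and *Me2*, the genes of pyruvate carboxylase and of the cytoplasmic and mitochondrial malic enzymes. Each was sequenced as ESCs in N2B27 with 2iLif, the inhibitors and cytokine that hold naive pluripotency, and as epiblast-like cells (EpiLCs) on day 2 of induction with Activin A, Fgf2 and XAV939. All groups shared the parental clone, the repressor, drug selection, fibronectin-coated plates and 5% O2, and each of the 4 groups held 3 libraries. Neg and 3xKD are a line each, with 3 guides for the 3 targets, and no uninduced library is named. Repression of the targets, other differences between the lines and off-target effects therefore cannot be told apart. DOX is named in the study's methods and legends and not in the sample labels. The methods name DMSO or DOX, and a figure legend on expression gives DOX to Neg and 3xKD cells alike, as ESCs and as EpiLCs day 2. The titles give both states to both lines and were followed here, although another label field names every Neg library as ESCs and every 3xKD library as EpiLCs. The labels do not say whether the 3 libraries of a group came from separate cultures, so that p-values measure the spread between these libraries.

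Histone lysine methyltransferases move a methyl group from S-adenosylmethionine onto lysines of the histone tails, most of them through a SET domain. Methylation of H3K4 marks promoters and enhancers, that of H3K36 and H3K79 marks transcribed genes, and that of H3K9 and H4K20 marks silent chromatin and repeats. Demethylases of the KDM1 family remove methyl groups with FAD, whereas the JmjC family uses oxygen, iron and alpha-ketoglutarate, a metabolite of the TCA cycle. In pluripotent cells these enzymes are known for silencing retroviral elements, for bivalent promoters and for the enhancer changes that accompany the exit from naive pluripotency.

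Counts summed to between 11221023 and 19652197 per library, and 0.572% to 0.746% of them fell on the 38 genes. The knockdown was visible in every library. *Pcx* read 36.3, 36.8 and 35.7 CPM (counts scaled to library size with edgeR's TMM factors) in Neg ESCs against 16.2, 16.3 and 16.8 in 3xKD ESCs, and the 3 targeted genes fell in both states by 0.89 to 1.14 on the log2 scale. Markers of the 2 states followed the titles: the 10 naive genes summed to between 5180 and 5344 CPM in Neg ESCs and to between 343 and 358 in Neg EpiLCs, and the 7 formative genes to between 276 and 289 and between 3186 and 3578. In 3xKD ESCs the naive genes summed to between 4028 and 4105 CPM, with 5 of 10 called lower, and the formative genes to between 306 and 313, with 2 of 7 called lower and 0 higher. *Dnmt3a*, a large part of that formative sum, read 138, 146 and 133 CPM in Neg ESCs and 180, 182 and 183 in 3xKD ESCs. In 3xKD EpiLCs the naive genes summed to between 476 and 490 CPM, with 5 called higher and 1 lower, and the formative genes to between 1795 and 1859, with 6 called lower. In bulk RNA, fewer cells of a kind and less RNA per cell cannot be told apart. Among other lineages, the trophoblast markers summed to between 18.5 and 20.1 CPM in Neg EpiLCs and to between 38.8 and 42.3 in 3xKD EpiLCs. In ESCs they summed to between 36.3 and 38.4 CPM in Neg and to between 30.4 and 35.3 in 3xKD. Of these 6, *Krt8* and *Krt18* were called higher in both states, and 2 were called lower in each. Those lower were *Cdx2* and *Tfap2a* in ESCs and *Gata3* and *Tfap2a* in EpiLCs. Neuroectoderm genes summed to between 118 and 123 CPM in Neg EpiLCs and to between 54.2 and 56.7 in 3xKD EpiLCs, where 2 of 4 were called lower. The primitive endoderm list reached at most 32.2 CPM, the mesoderm list 30 and the fibroblast list 8.56 in any library. Genes of 2-cell-like cells summed to between 761 and 820 CPM in 3xKD EpiLCs and to between 345 and 379 in Neg EpiLCs. None of the listed markers with at least 10 counts in total was at 0 in all libraries of a group. The fibroblast list had 4 of its 5 genes past that filter. The part of these cell types in the results on the 38 genes was not tested.

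The guides against *Pcx* and *Me1* are shown since they fix where repression was aimed, and that against *Me2*, which matched 32 bp from a start site of *Me2*, is not printed. Each is written 5′ to 3′ as the stretch matched to the genome, with the 12 bases next to the PAM in capitals. A leading base listed in lower case, where present, was left off before matching. The guide for *Pcx* matched GRCm39 at chr19:4560559-4560577 on the plus strand, 13 bp from an annotated start site of *Pcx*, and that for *Me1* matched chr9:86577959-86577976 on the plus strand, 3 bp from a start site of *Me1*. Both were followed by a CGG PAM.
Pcx guide: aggcaggGGCCGTCAGAGG
Me1 guide: agaagcGCTGAGTCACGG
None of the 12-base ends of the 3 guides lay beside an NGG PAM within 1000 bp of any annotated start site of the 38 genes. The members nearest to a guide on the same chromosome as *Pcx* were *Kdm2a* (chr19:4364447-4448313, minus strand), with a start site 112255 bp from the *Pcx* guide, and *Kmt5b* (chr19:3817362-3868322, plus strand), with a start site 706174 bp from it.

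All 38 genes were read and passed the filter on low counts. The demethylase *Kdm5b*, which removes H3K4 methylation, stood first with a mean of 125 TPM, Salmon's level per transcript length, over the 12 libraries, followed by *Kdm1a* (90.9 TPM), the FAD-dependent H3K4 demethylase, and *Nsd1* (67.3 TPM), an H3K36 methyltransferase. The H4K20 enzymes *Kmt5a* (58 TPM) and *Kmt5c* (46.5 TPM) came next among the methyltransferases. At the low end stood *Ash1l* (4.04 TPM), *Setdb2* (3.54 TPM), *Phf2* (2.66 TPM) and *Kdm4d* (0.0978 TPM). *Kdm4d* rested on between 2 and 10 counts per library, and no difference in it was detectable at this depth, whereas every other member had at least 161 counts in each library. Summed over the 38 genes, the normalized level was 6159 to 6492 CPM in Neg ESCs, 5791 to 5863 in 3xKD ESCs, 7384 to 7592 in Neg EpiLCs and 6002 to 6287 in 3xKD EpiLCs. Neg EpiLCs thus held the highest sums, and 3xKD lay under Neg in each state without overlap. These sums rest most on *Kdm5b* and *Nsd1*, whose means in ESCs were 993 and 649 CPM in Neg and 868 and 470 in 3xKD. Median log2 fold changes by class are given below.

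**Figure D1:**
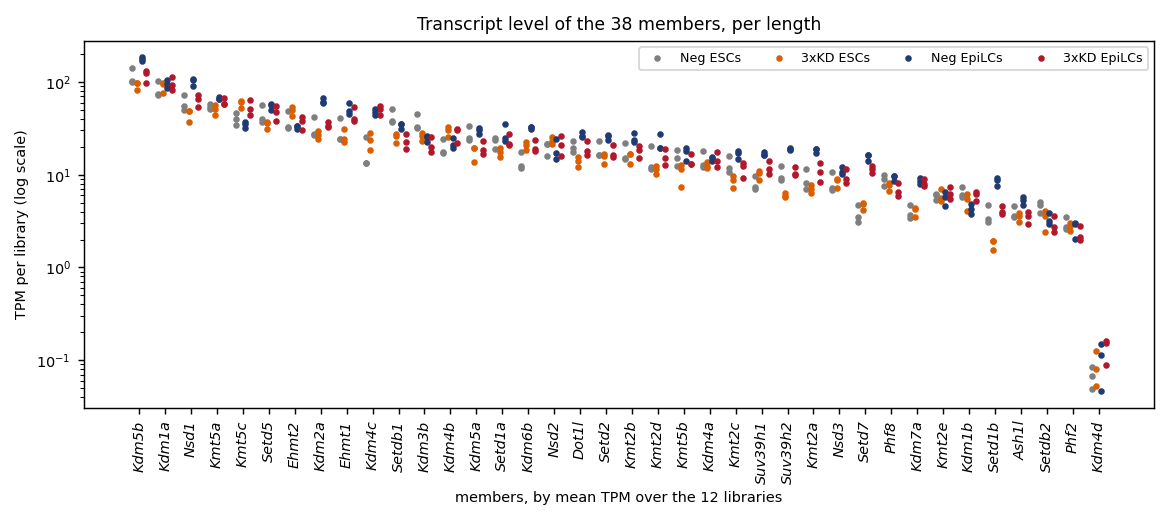
TPM of the 38 members in each of the 12 libraries on a log scale, ordered by their mean, with 1 point per library coloured by group. *Kdm5b* leads at a mean of 125 TPM, and *Kdm4d* stands apart at 0.0978 TPM.

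How 3xKD differed from Neg in these genes was first asked in naive cells. In 3xKD ESCs the methyltransferases *Setd1b*, *Setdb1* and *Suv39h2* fell and *Kmt5c* rose, while the alpha-ketoglutarate-dependent demethylases *Kdm4c* and *Kdm6b* rose and no demethylase fell past the limits. Calls needed an adjusted p below 0.01 with a log2 fold change beyond 0.58 in either direction. The p-values came from quasi-likelihood tests in edgeR, adjusted by the Benjamini-Hochberg method over 25446 genes, and all log2 fold changes and adjusted p given here come from that fit. Of the 24 methyltransferases, 1 was called higher and 3 lower, and of the 14 demethylases 2 were called higher, both among the 12 that depend on alpha-ketoglutarate. Of the 2 FAD-dependent demethylases, *Kdm1a* was higher at the adjusted p alone. Over all genes tested, 8.5% were called higher and 6.76% lower, so that the 3 higher and 3 lower among 38 members lie near the background. At the adjusted p alone, 6 methyltransferases were higher and 12 lower, and 4 demethylases were higher and 3 lower, beside 15.6% higher and 16% lower over all genes. Here and below, the shares over all genes include genes with as few as 10 counts in total. Every member but *Kdm4d* had at least 161 counts in each library, so more of the members could reach the adjusted p. No share over genes of like level was computed. The median log2 fold change was −0.20 for the methyltransferases and 0.04 for the demethylases, against 0.026 for all genes.

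*Setd1b*, *Suv39h2*, *Nsd1*, *Kmt2a* and *Kmt5b* fell in 3xKD EpiLCs against Neg EpiLCs and *Kmt5c* rose, and 0 of the 14 demethylases were called by edgeR, with 0 by DESeq2 and 11 at an unadjusted p under 0.05. The background was 7.88% called higher and 5.35% called lower. The 5 methyltransferases called lower were 20.8% of the 24. At the adjusted p alone 3 methyltransferases were higher and 16 lower, and 4 demethylases were higher and 5 lower, where the background held 14.3% higher and 15.6% lower. That background again holds many genes of lower counts than the members. With the stricter filter filterByExpr, 3442 of 17509 genes were called in this comparison, against 3367 of 25446 here. The 7 H3K4 methyltransferases had log2 fold changes between −0.89 and −0.17, each lower at the adjusted p alone. The medians were −0.33 for methyltransferases, 0.03 for demethylases and 0.032 for all genes. Between the 2 states, which share no library here, *Kmt5c* was called higher in both (1 of 3 in ESCs and 1 of 1 in EpiLCs), *Setd1b* and *Suv39h2* were called lower in both (66.7% of the ESC calls and 40% of the EpiLC calls), and the estimate had the same sign for 27 of the 38 genes. Over all genes the shared calls were 51.9% and 56% of those higher and 42.6% and 53.9% of those lower, and 69.2% of the estimates had the same sign.

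**Figure D2:**
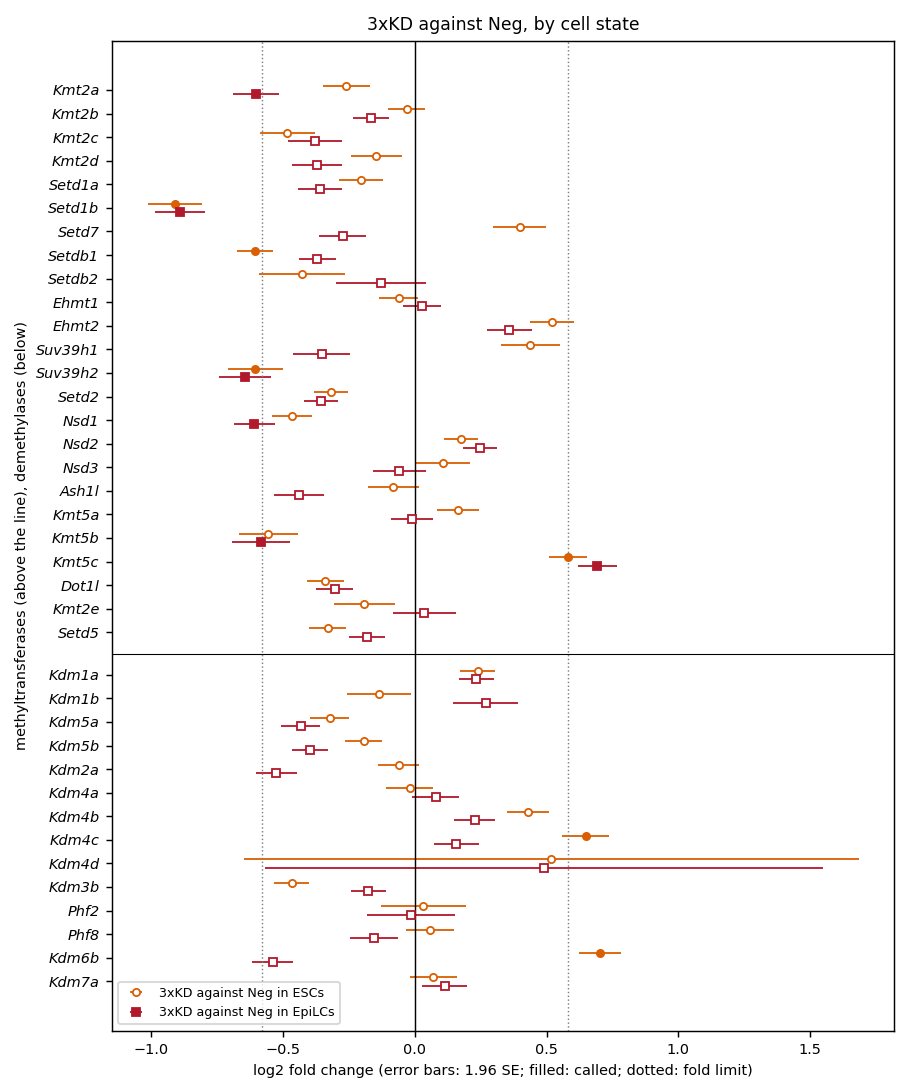
Log2 fold change of 3xKD against Neg for the 24 methyltransferases and 14 demethylases in ESCs (circles) and EpiLCs (squares), with error bars for the 95% interval, filled symbols for called genes and dotted lines at the fold limit of 0.58. *Setd1b* lies near −0.9 in both states, *Kmt5c* lies beyond 0.58 in both, and *Kdm6b*, *Setd7* and *Suv39h1* lie on opposite sides of 0 in the 2 states.

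Among the H3K4 methyltransferases *Setd1b* had the largest change. It encodes a catalytic subunit of a COMPASS complex that places H3K4me3, at chr5:123280256-123306692 on the plus strand (GRCm39). Its level was 43.8, 47.5 and 45.5 CPM in Neg ESCs and 24.6, 23.0 and 25.4 in 3xKD ESCs, and 85.3, 85.2 and 91.6 in Neg EpiLCs and 46.5, 46.7 and 48.3 in 3xKD EpiLCs. The ranges did not overlap in either state, and 3xKD EpiLCs came close to the Neg ESC level. *Setd1b* was 0.532-fold of Neg in ESCs (log2 fold change −0.91 ± 0.053 SE, adjusted p = 8.0e-10) and 0.54-fold in EpiLCs (−0.89 ± 0.048, adjusted p = 4.4e-10). The difference between the states was 0.02 ± 0.071 with a 95% interval of −0.12 to 0.16. Its paralogue *Setd1a* differed by −0.20 in ESCs and −0.36 in EpiLCs, under the fold limit.

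*Kmt2a*, the MLL1 methyltransferase of developmental promoters (chr9:44714652-44792621, minus strand), fell in EpiLCs. The 3 Neg EpiLC libraries held 294, 295 and 302 CPM and the 3 3xKD EpiLC libraries 209, 198 and 180 (log2 fold change −0.60 ± 0.045, adjusted p = 1.5e-08). In ESCs the same gene read 183, 194 and 186 CPM in Neg and 160, 151 and 158 in 3xKD, a difference of −0.26 ± 0.046. Groups were apart in both states, and the gap was wider in EpiLCs. The enhancer methyltransferases *Kmt2c* and *Kmt2d* had −0.48 and −0.15 in ESCs and −0.38 and −0.37 in EpiLCs, and *Kmt2b*, which acts at bivalent promoters, had −0.03 and −0.17. *Setd7*, which methylates H3K4 and non-histone proteins, moved in opposite directions and is described with the differences between states.

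H3K9 methylation is placed by enzymes with separate targets, and these did not move together. *Setdb1*, which silences retroviral elements with KAP1 (chr3:95229399-95264541, minus strand), fell in 3xKD ESCs to 191, 195 and 193 CPM from 287, 299 and 295 in Neg (−0.61 ± 0.035, adjusted p = 7.8e-10). In EpiLCs it read 199, 197 and 200 CPM in Neg and 161, 155 and 146 in 3xKD, and the difference of −0.37 ± 0.036 stayed under the fold limit. The 3xKD ESCs lay just under Neg EpiLCs, and 3xKD EpiLCs were lowest. *Setdb2* had −0.43 in ESCs and −0.13 in EpiLCs, both under the limit.

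*Suv39h2*, which places H3K9me3 at pericentric heterochromatin (chr2:3455774-3476146, minus strand), fell in both states. Neg ESCs held 42.1, 44.2 and 43.9 CPM and 3xKD ESCs 30.2, 27.3 and 28.2 (−0.60 ± 0.053, adjusted p = 9.8e-08). Neg EpiLCs held 71.7, 68.5 and 66.5 CPM and 3xKD EpiLCs 42.2, 44.6 and 45.4 (−0.64 ± 0.050, adjusted p = 2.4e-08). As with *Setd1b*, the 3xKD EpiLC libraries lay at the level of Neg ESCs. *Ehmt2*, the G9a enzyme of H3K9me2 in euchromatin, was higher in 3xKD by 0.52 ± 0.043 in ESCs and 0.36 ± 0.044 in EpiLCs, both past the adjusted p and under the fold limit, while its partner *Ehmt1* had −0.06 and 0.03.

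The H4K20 enzymes split. *Kmt5c*, which writes H4K20me3 in heterochromatin (chr7:4743085-4750515, plus strand), rose in ESCs from 77.8, 75.0 and 76.2 CPM to 115, 114 and 114 (0.58 ± 0.037, adjusted p = 2.1e-09) and in EpiLCs from 54.4, 52.2 and 54.6 to 86.4, 89.96 and 84.3 (0.69 ± 0.038, adjusted p = 4.7e-10). Its paralogue *Kmt5b*, which writes H4K20me2, read 65.0, 63.1 and 67.7 CPM in Neg ESCs and 41.6, 44.0 and 47.8 in 3xKD ESCs (−0.56 ± 0.057). In EpiLCs it fell from 63.8, 63.1 and 69.0 to 41.3, 44.8 and 44.6 CPM (−0.58 ± 0.057, adjusted p = 3.3e-07). None of these ranges overlapped between 3xKD and Neg. *Kmt5a*, the monomethyltransferase of H4K20, had 0.16 and −0.01.

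Among the H3K36 enzymes *Nsd1*, which places H3K36me2 between genes (chr13:55357560-55466138, plus strand), fell in EpiLCs from 947, 958 and 986 CPM to 630, 655 and 612 (−0.61 ± 0.039, adjusted p = 2.8e-09). The same gene had 621, 675 and 651 CPM in Neg ESCs and 454, 468 and 487 in 3xKD ESCs (−0.47 ± 0.039), under the fold limit though without overlap. *Setd2*, the H3K36me3 enzyme, had −0.32 and −0.36, *Nsd2* 0.17 and 0.25, and *Nsd3* 0.11 and −0.06. *Dot1l*, the H3K79 methyltransferase, had −0.34 and −0.30. The SET proteins *Kmt2e* and *Setd5*, for which activity on histones is uncertain, had −0.19 and 0.04 and −0.33 and −0.18.

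Several of these calls sit at the fold limit, and in ESCs *Setdb1* (−0.58 to −0.57 without replicate 1 of 3xKD ESCs, replicate 1 or 2 of Neg EpiLCs, or replicate 3 of 3xKD EpiLCs), *Suv39h2* (−0.58 to −0.57 without replicate 2 of 3xKD ESCs or the same 3 EpiLC libraries) and *Kmt5c* (0.57 and 0.58 without Neg ESCs replicate 2 or 3) were not called with those libraries left out. Leaving out either of those Neg EpiLC libraries or 3xKD EpiLCs replicate 3 took the 4 methyltransferases called to 2. In EpiLCs the same held for *Kmt2a* (−0.55 without 3xKD EpiLCs replicate 3) and *Kmt5b* (−0.58, −0.54 and −0.55 without 3xKD ESCs replicate 1, Neg EpiLCs replicate 3 and 3xKD EpiLCs replicate 1), and *Kmt5b* was at −0.11 and *Nsd1* at −0.50 with transcript-length offsets, neither of them called.

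For the demethylases, the alpha-ketoglutarate-dependent H3K27 demethylase *Kdm6b* (chr11:69289334-69304501, minus strand), which relieves Polycomb repression, changed most. It rose in 3xKD ESCs from 136, 144 and 132 CPM to 227, 224 and 218 (0.70 ± 0.040, adjusted p = 6.6e-10). In EpiLCs Neg held 284, 265 and 261 CPM and 3xKD 188, 183 and 186, a difference of −0.54 ± 0.039 with an adjusted p of 1.3e-08 that stayed under the fold limit. The 4 groups did not overlap: Neg ESCs were lowest, 3xKD EpiLCs next, then 3xKD ESCs, and Neg EpiLCs were highest. *Kdm7a*, which acts on H3K9 and H3K27, had 0.07 and 0.11.

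*Kdm4c*, a JmjC demethylase of H3K9me3 and H3K36me3 (chr4:74160734-74324757, plus strand), rose in 3xKD ESCs from 88.7, 100 and 88.2 CPM to 139, 145 and 151 (0.65 ± 0.045, adjusted p = 6.6e-09). In EpiLCs it read 217, 221 and 220 CPM in Neg and 242, 246 and 245 in 3xKD, a difference of 0.16 ± 0.043. With transcript-length offsets the value in ESCs was 0.56 and was not called. *Kdm4b*, of the same family, had 0.43 in ESCs and 0.23 in EpiLCs, and with transcript-length offsets 0.70, which was called, and 0.51, which was not, and *Kdm4a* had −0.02 and 0.08.

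The remaining demethylases stayed within the fold limit in both states. The H3K4 demethylases of the KDM5 family had negative values, −0.32 and −0.43 for *Kdm5a* and −0.19 and −0.40 for *Kdm5b*, each past the adjusted p. *Kdm1a* had 0.24 and 0.23 and its FAD-dependent paralogue *Kdm1b* −0.14 and 0.27, so that both were higher at the adjusted p alone in EpiLCs. With transcript-length offsets the EpiLC value of *Kdm1b* was 0.65 and did not pass the adjusted p. *Kdm2a*, an H3K36me2 demethylase that binds unmethylated CpG islands and the member nearest to the *Pcx* guide, read 190, 208 and 195 CPM in Neg ESCs and 186, 186 and 197 in 3xKD ESCs, and 279, 281 and 282 CPM in Neg EpiLCs against 194, 203 and 188 in 3xKD EpiLCs. Groups overlapped in ESCs and were apart in EpiLCs (−0.06 ± 0.039 and −0.52 ± 0.039), and with transcript-length offsets the latter was −0.69 and was called. The H3K9 demethylase *Kdm3b* had −0.47 and −0.18, *Phf2* 0.03 and −0.01, and *Phf8* 0.06 and −0.16.

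**Figure D3:**
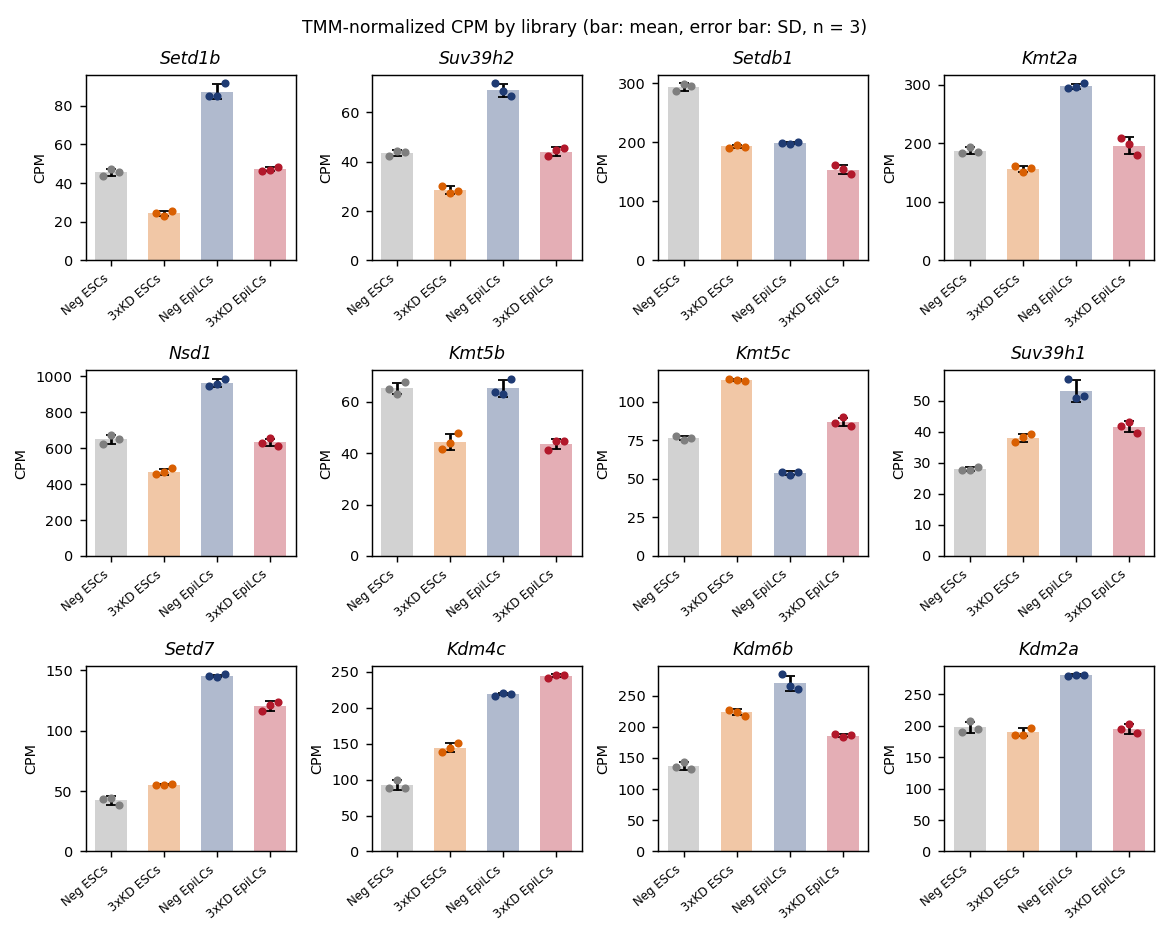
CPM of 12 members in each library, with bars for the mean of 3 libraries and error bars for the SD, in Neg ESCs, 3xKD ESCs, Neg EpiLCs and 3xKD EpiLCs. *Setd1b* and *Suv39h2* in 3xKD EpiLCs sit at the height of Neg ESCs, and *Kdm6b* is higher in 3xKD than in Neg as ESCs and lower as EpiLCs.

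Whether 3xKD differed from Neg alike in naive and formative cells was tested at an adjusted p under 0.01. The value tested was the difference of the 3xKD effects, EpiLCs minus ESCs. This difference was positive for 3 members and negative for 8, that is 5 methyltransferases and 6 demethylases, where 4.76% of all genes were higher and 5.27% lower. With transcript-length offsets 4 of these 11 were called, namely *Kdm6b*, *Suv39h1*, *Setd7* and *Kdm2a*, and over all genes the calls went from 2553 to 727. The estimates of the other 7 kept their sign, and *Kdm4c* was at −0.31, *Kdm1b* at 0.82 and *Kmt2a* at −0.41. *Kdm6b* had the largest value, −1.24 ± 0.056 (adjusted p = 4.5e-10).

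*Suv39h1*, the paralogue of *Suv39h2* (chrX:7927403-7940999, minus strand), held 27.6, 27.8 and 28.7 CPM in Neg ESCs and 36.6, 38.2 and 39.3 in 3xKD ESCs, whereas in EpiLCs it held 57.0, 50.7 and 51.6 in Neg and 42.0, 43.2 and 39.6 in 3xKD. The 3xKD libraries were above Neg as ESCs (0.44 ± 0.058) and under Neg as EpiLCs (−0.35 ± 0.055), so that both 3xKD groups lay between the Neg groups, and the difference was −0.79 ± 0.079 (adjusted p = 3.1e-06). *Setd7* (chr3:51422740-51468300, minus strand) behaved likewise in sign, with 43.8, 44.6 and 38.1 CPM in Neg ESCs, 55.2, 55.3 and 55.5 in 3xKD ESCs, 145, 144 and 146 in Neg EpiLCs and 116, 121 and 123 in 3xKD EpiLCs. Its effects were 0.40 ± 0.051 and −0.27 ± 0.046, and the difference was −0.67 ± 0.069 (adjusted p = 3.9e-06). *Kdm6b*, *Suv39h1* and *Setd7* were the 3 members past the adjusted p in both states with opposite signs. In Neg cells all of them were higher in EpiLCs than in ESCs. In 3xKD EpiLCs, 5 naive markers were called higher, 1 naive marker lower and 6 formative markers lower. In 3xKD ESCs, 5 naive and 2 formative markers were called lower and 0 formative markers higher. The part of cell state in the values of *Kdm6b*, *Suv39h1* and *Setd7* was not tested.

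The other differences were smaller. *Kdm4c* had −0.49 ± 0.062 (adjusted p = 3.4e-05), *Kdm2a* −0.46 ± 0.055 (adjusted p = 1.8e-05) and *Kmt2a* −0.34 ± 0.064 (adjusted p = 0.0011). *Ash1l*, an H3K36 methyltransferase of active genes, read 65.8, 66.0 and 66.9 CPM in Neg ESCs, 63.2, 60.1 and 64.7 in 3xKD ESCs, 72.5, 70.9 and 79.5 in Neg EpiLCs and 56.3, 55.8 and 52.3 in 3xKD EpiLCs. 3xKD EpiLCs were its lowest group, and the difference was −0.36 ± 0.070 (adjusted p = 0.0016). The value of *Kdm5b* was −0.20 ± 0.050 (adjusted p = 0.0098), from 963, 1024 and 993 CPM in Neg ESCs, 876, 856 and 873 in 3xKD ESCs, 1294, 1259 and 1301 in Neg EpiLCs and 999, 996 and 930 in 3xKD EpiLCs.

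A positive difference was found for *Setdb1* (0.24 ± 0.050, adjusted p = 0.0032), *Kdm3b* (0.29 ± 0.048, adjusted p = 0.00037) and *Kdm1b* (0.41 ± 0.089, adjusted p = 0.0042). *Kdm3b* read 331, 343 and 337 CPM in Neg ESCs, 247, 245 and 240 in 3xKD ESCs, 191, 191 and 194 in Neg EpiLCs and 178, 168 and 164 in 3xKD EpiLCs. Its 3xKD libraries were lower than Neg in both states, with the wider gap in ESCs. *Kdm1b* read 30.9, 27.3 and 30.0 CPM in Neg ESCs, 25.8, 27.2 and 27.2 in 3xKD ESCs, 20.8, 21.3 and 22.7 in Neg EpiLCs and 27.1, 25.9 and 25.1 in 3xKD EpiLCs. Its 3xKD libraries lay under Neg as ESCs and above Neg as EpiLCs. Library size alone ended the calls of *Kmt2a* (−0.27), *Ash1l* (−0.28) and *Kdm5b* (−0.13), DESeq2 that of *Kdm1b* (0.42), and RLE factors (−0.19) or no filter (−0.18) that of *Kdm5b*. Calls also ended with single libraries left out: *Setdb1* was not called without 3xKD ESCs replicate 1 (0.20), *Kdm1b* without any of 6 libraries (0.35 to 0.39 without replicate 1 or 3 of Neg ESCs, 1 of 3xKD ESCs, 1 or 2 of Neg EpiLCs or 1 of 3xKD EpiLCs), and *Kdm5b* without any of 6 (−0.22 to −0.18 without replicate 1 or 3 of Neg ESCs, 2 or 3 of 3xKD ESCs, 3 of Neg EpiLCs or 2 of 3xKD EpiLCs).

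The transition from ESCs to EpiLCs was compared within each line to see how these genes change with state. In Neg cells 5 methyltransferases rose (*Setd7*, *Setd1b*, *Suv39h1*, *Suv39h2* and *Kmt2a*) and *Setdb2* fell, and 3 demethylases rose (*Kdm4c*, *Kdm6b* and *Kdm7a*) and *Kdm3b* fell. In all, 8 of 38 members were called higher and 2 lower, where 9.78% of all genes were called higher and 11% lower. At the adjusted p alone, 12 methyltransferases were higher and 6 lower and 5 demethylases were higher and 4 lower, against 17.5% and 18.2% of all genes. The 7 H3K4 methyltransferases all had positive values, between 0.14 and 1.79, of which 6 passed the adjusted p. Medians were 0.15 for the methyltransferases, −0.06 for the demethylases and 0.011 for all genes.

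*Setd7* rose 3.46-fold (1.79 ± 0.050, adjusted p = 1.8e-14) and *Kdm4c* 2.37-fold (1.25 ± 0.045, adjusted p = 5.5e-13). *Kdm6b* rose by 0.98 ± 0.040, *Setd1b* by 0.94 ± 0.049, *Suv39h1* by 0.92 ± 0.057, *Suv39h2* by 0.67 ± 0.050 and *Kmt2a* by 0.66 ± 0.045. *Kdm7a* went from 51.5, 50.03 and 47.8 CPM in Neg ESCs to 84.7, 87.1 and 90.4 in Neg EpiLCs (0.81 ± 0.045), and from 51.6, 50.1 and 54.9 to 94.6, 95.01 and 93.9 in 3xKD. *Kdm3b* fell by 0.81 ± 0.034 on the log2 scale. *Setdb2*, an H3K9 methyltransferase of low level here, went from 17.9, 18.5 and 18.3 to 11.5, 13.4 and 11.1 CPM (−0.61 ± 0.085, adjusted p = 1.3e-05), and was not called without Neg EpiLCs replicate 1 (−0.54) or 3 (−0.55), 3xKD ESCs replicate 1 (−0.57) or 3xKD EpiLCs replicate 3 (−0.57). *Setdb1* (−0.56) and *Nsd1* (0.57) lay just under the fold limit.

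In the 3xKD line 5 members rose and 1 fell, beside 9.42% of all genes called higher and 9.32% lower. *Setd7* (1.12 ± 0.048), *Setd1b* (0.96 ± 0.053), *Kdm7a* (0.86 ± 0.044), *Kdm4c* (0.76 ± 0.044) and *Suv39h2* (0.63 ± 0.053) rose, all of them among the 8 called in Neg cells (62.5%, where 64% of the higher Neg calls over all genes were shared), and *Ehmt2* fell by 0.65 ± 0.043. At the adjusted p alone 9 methyltransferases were higher and 6 lower and 3 demethylases were higher and 6 lower, with 15.9% and 17.9% of all genes as background. *Kdm6b* had −0.26 ± 0.040 in 3xKD and *Suv39h1* 0.13 ± 0.056. *Setd1b* and *Suv39h2* had nearly the same log2 change in both lines, 0.94 and 0.96 and 0.67 and 0.63, from different ESC levels. Their differences between lines were 0.02 and −0.04, with 95% intervals of −0.12 to 0.16 and −0.18 to 0.10.

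**Figure D4:**
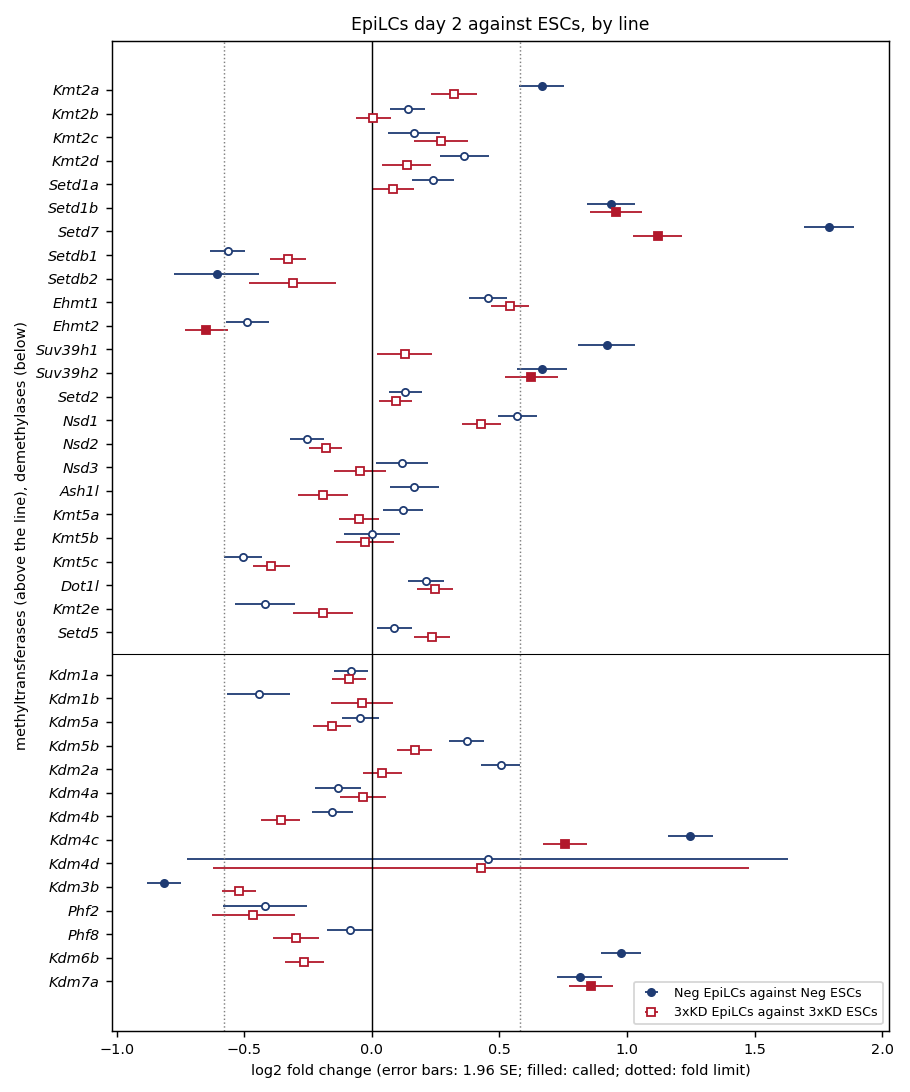
Log2 fold change of EpiLCs day 2 against ESCs in Neg (circles) and 3xKD (squares) for each member, with error bars for the 95% interval, filled symbols for called genes and dotted lines at 0.58. The values of *Setd7*, *Kdm6b* and *Suv39h1* are higher in Neg than in 3xKD, and *Setd1b*, *Suv39h2* and *Kdm7a* lie at nearly the same place in both lines.

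Transcript shares were read because the length of a gene's transcripts enters a count. For each gene with at least 2 transcripts and a mean of at least 1 TPM, the share of its leading transcript was compared, and a gene was counted when the 3 libraries of each group did not overlap and the mean shares differed by at least 10 percentage points. The count has no test, since an exact permutation test of 3 against 3 cannot go below p = 0.10. Of 36 members, 5 met the rule between 3xKD and Neg ESCs, 5 between the EpiLC groups, 2 in the Neg transition and none in the 3xKD transition, beside 10.4%, 10.2%, 8.22% and 8.04% of 11081 genes. *Kmt5b* met it in both states. Its protein-coding transcript ENSMUST00000113970 took 22.3%, 24.1% and 25.3% of the gene's TPM in Neg ESCs and 46.5%, 39% and 45.4% in 3xKD ESCs, and 28.3%, 25.8% and 28.1% in Neg EpiLCs and 34.6%, 43.2% and 36% in 3xKD EpiLCs. With transcript-length offsets *Kmt5b* read −0.44 in ESCs and −0.11 in EpiLCs in place of −0.56 and −0.58.

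The leading transcript of *Kmt5c*, ENSMUST00000129927, is annotated as a retained intron. It took 13.9%, 13.9% and 12% in Neg ESCs and 22.1%, 27.8% and 25.2% in 3xKD ESCs. In EpiLCs it averaged 12.7% in Neg and 22.5% in 3xKD, without overlap but under the limit of 10 percentage points. The protein-coding ENSMUST00000098853 took 33.3%, 31.3% and 19% in Neg ESCs and 20.7%, 0% and 10.3% in 3xKD ESCs, which overlapped, and its share was estimated too unevenly to compare. Another protein-coding transcript, ENSMUST00000130215, went from 13.3%, 20.3% and 20.5% in Neg ESCs to 7.31%, 8.57% and 6.68% in 3xKD ESCs. In EpiLCs it went from 18.8%, 21.1% and 19.4% to 8.74%, 10.5% and 14.9%, again without overlap. The protein-coding ENSMUST00000108582 went the other way in ESCs, from 13.4%, 11.3% and 13.7% to 15.7%, 18.2% and 16.3%, and overlapped in EpiLCs. For *Nsd1* the share of ENSMUST00000099490 was 37.6% in Neg ESCs and 25.6% in 3xKD ESCs. *Phf8* met the rule in both states (62.9% and 76.9% in ESCs, 61.2% and 77.2% in EpiLCs), though its ESC groups were apart by less than the last printed digit at 73.1%. *Setd2* met it in ESCs, *Kdm4b*, *Kmt2e* and *Setdb2* in EpiLCs, and *Ehmt2* and *Kdm1b* in the Neg transition. The shares are Salmon estimates from single-end reads, which divide reads among overlapping transcripts.

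**Figure D5:**
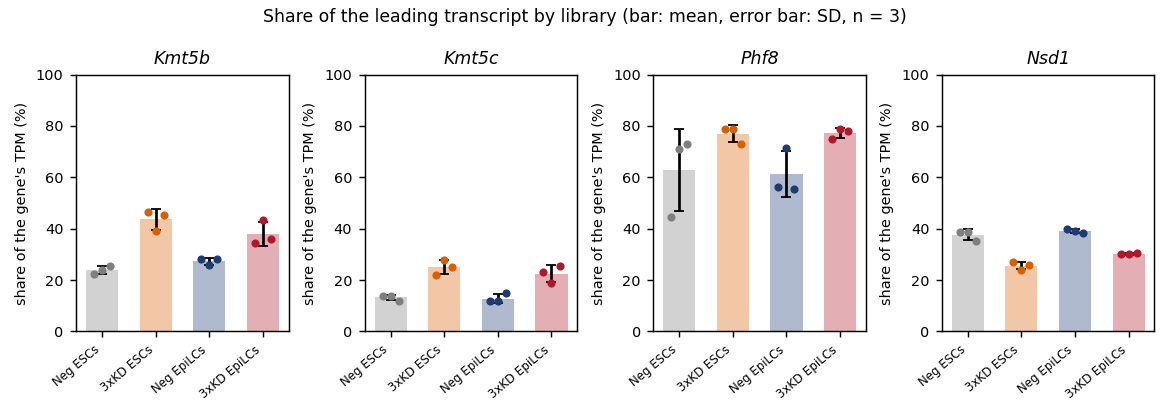
Share of the leading transcript in its gene's TPM, in percent, for *Kmt5b*, *Kmt5c*, *Phf8* and *Nsd1*, with 1 point per library, bars for the mean of 3 and error bars for the SD. For *Kmt5b* and *Kmt5c* the 3xKD libraries lie above the Neg libraries in both states, and for *Nsd1* they lie below.

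Promoter windows were available for 26 of the 38 genes in the RefSeq table (GRCm38.p6), from 250 bases before to 50 after a start site. *Nsd1*, *Nsd2*, *Nsd3*, *Setd1b*, *Kdm5a*, *Kmt2b*, *Kmt2e*, *Ash1l*, *Kdm2a*, *Kdm6b*, *Kdm3b* and *Kdm4b* had none. ACGTG, the core of the hypoxia response element, was searched on both strands since all cells grew at low oxygen, with CACGTG, the E-box, which contains it. ACGTG lay in 9 of 32 member windows (28.1%) and in 19.6% of all 32851 windows, and CACGTG in 3 (9.38%) and in 7.15%. Member windows were rich in G and C, with a median of 65.5% against 52.7% over all windows. 1 window each of 3 called genes is shown for what they share and do not: *Kdm4c*, higher in 3xKD ESCs, *Kmt5c*, higher in both states, and *Suv39h2*, lower in both. They lie at chr4:74251629-74251928 (plus strand), chr7:4739877-4740176 (plus strand) and chr2:3474937-3475236 (minus strand), read 5′ to 3′ along the gene, with any ACGTG or CACGTG in capitals.
Kdm4c: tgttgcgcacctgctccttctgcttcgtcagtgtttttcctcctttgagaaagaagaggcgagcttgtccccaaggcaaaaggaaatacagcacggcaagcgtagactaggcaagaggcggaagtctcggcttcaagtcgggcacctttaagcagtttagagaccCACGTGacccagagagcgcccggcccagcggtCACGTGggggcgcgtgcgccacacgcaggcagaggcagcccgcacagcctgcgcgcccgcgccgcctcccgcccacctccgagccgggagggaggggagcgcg
Kmt5c: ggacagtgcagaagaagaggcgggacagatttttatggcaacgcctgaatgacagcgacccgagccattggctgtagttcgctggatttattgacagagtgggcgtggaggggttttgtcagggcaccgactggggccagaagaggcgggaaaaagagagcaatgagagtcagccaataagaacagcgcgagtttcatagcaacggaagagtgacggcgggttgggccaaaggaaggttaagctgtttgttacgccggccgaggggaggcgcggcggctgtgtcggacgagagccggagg
Suv39h2: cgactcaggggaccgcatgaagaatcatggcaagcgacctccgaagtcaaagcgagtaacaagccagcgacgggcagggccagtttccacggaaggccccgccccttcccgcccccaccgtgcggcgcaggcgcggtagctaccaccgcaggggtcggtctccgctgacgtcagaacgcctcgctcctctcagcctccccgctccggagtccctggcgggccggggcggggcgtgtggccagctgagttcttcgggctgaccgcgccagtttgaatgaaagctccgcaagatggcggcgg
This *Kdm4c* window, 1 of 2 in the table and the one with the motif, held CACGTG at 2 places, each of which reads as ACGTG on both strands, and the *Kmt5c* and *Suv39h2* windows held neither motif. A match describes the letters of the window and not the binding of a factor.

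The genes that work with these enzymes were counted from fixed lists. Of 12 partners of the COMPASS and MLL complexes, 5 were lower at the adjusted p alone in 3xKD ESCs and 6 lower and 1 higher in EpiLCs, and none was called by edgeR, with 6 and 9 at an unadjusted p under 0.05. The log2 fold changes reached 1.88 in EpiLCs for *Pagr1a*, with 1.8, 4.28 and 21.1 CPM in the 3 3xKD libraries. The all-gene shares given above, 16% and 15.6% lower at the adjusted p alone and 6.76% and 5.35% called lower in ESCs and EpiLCs, are the background for these lists too. Of 13 H3K9 partners and readers, *Uhrf1*, which binds H3K9me3 and hemimethylated DNA, rose in 3xKD ESCs (0.62 ± 0.029), and *Tasor*, of the HUSH silencing complex, fell by 0.80 in both states. *Zfp644*, a G9a partner, fell in ESCs by 0.60 ± 0.039, and 5 of the 13 fell in EpiLCs, among them *Pphln1*, also of HUSH (−0.71 ± 0.049). Of 10 CoREST partners of *Kdm1a*, *Zmym3* rose in ESCs (0.63 ± 0.049). Among 24 further lysine methyltransferases and demethylases, ESCs had 1 called higher and 2 lower and EpiLCs 1 called higher and 4 lower. *Setd6* rose in both states (0.86 ± 0.091 and 1.04 ± 0.095), and the largest falls were *Mecom* (−1.64 ± 0.23) and *Setmar* (−0.77 ± 0.18) in ESCs and *Prdm9* (−0.95 ± 0.18) and *Mecom* (−0.83 ± 0.22) in EpiLCs. These 3 lay at low levels, in Neg ESCs 5.85, 4.68 and 5.51 CPM for *Mecom* and 4.96, 7.23 and 6.37 for *Setmar*. In Neg EpiLCs *Prdm9* read 5.48, 4.70 and 3.98 CPM. *Kdm3a*, also called lower in EpiLCs, read 275.4, 270.4 and 267.5 CPM in Neg and 177, 171.9 and 166 in 3xKD.

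Of 22 genes of alpha-ketoglutarate metabolism, 4 rose and 1 fell in each state, and at the adjusted p alone ESCs had 13 higher and 2 lower and EpiLCs 11 higher and 4 lower. Over all genes 8.5% and 7.88% were called higher, and 15.6% and 14.3% were higher at the adjusted p alone. *Idh2*, the mitochondrial isocitrate dehydrogenase that yields alpha-ketoglutarate, rose by 1.09 ± 0.060 in ESCs and 1.70 ± 0.071 in EpiLCs, and *Gpt2*, a mitochondrial alanine transaminase, by 1.29 ± 0.052 and 1.40 ± 0.055. *D2hgdh*, which oxidizes 2-hydroxyglutarate, fell by 0.92 ± 0.25 and 1.34 ± 0.28 at low levels. In ESCs it read 2.84, 2.75 and 4.64 CPM in Neg and 2.27, 1.65 and 1.57 in 3xKD. In EpiLCs it read 3.08, 1.95 and 2.78 CPM in Neg and 0.931, 1.215 and 0.937 in 3xKD. Median log2 fold changes of the list were 0.20 and 0.14. Of the 13 genes tested among 14 of S-adenosylmethionine metabolism, 2 rose and 1 fell in ESCs and 3 rose and 2 fell in EpiLCs, with medians of −0.00 and −0.07. *Mat2a*, the S-adenosylmethionine synthetase subunit, fell by 1.07 ± 0.044 and 0.95 ± 0.043, and *Mettl16*, which controls *Mat2a* RNA, by 0.72 ± 0.043 in EpiLCs. *Ahcyl1*, a homologue of the S-adenosylhomocysteine hydrolase, rose by 0.72 ± 0.036 in ESCs. *Gnmt*, a methyltransferase that consumes S-adenosylmethionine, rose by 1.49 ± 0.40 and 2.37 ± 0.35 from low levels, 0.177, 0.344 and 0.306 CPM in Neg ESCs and 0.493, 0.269 and 0.379 in Neg EpiLCs. *Bhmt*, which regenerates methionine, was called higher in EpiLCs from 0.185, 0 and 0 CPM in Neg to 0.559, 0.703 and 0.25 in 3xKD, and its fold is not given at so few counts. RNA levels give neither the amount of enzyme nor that of the metabolites.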

How the data were processed

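RNA-seq libraries from E14 DOX-CRISPRi cells, 3 for each of Neg ESCs, 3xKD ESCs, Neg EpiLCs and 3xKD EpiLCs, were analysed from transcript tables. The authors trimmed reads with Trim Galore 0.6.7, aligned them with STAR 2.7.9a to GRCm39 and quantified transcripts with Salmon 1.10.1 (tool versions per the labels), and deposited estimated counts and TPM for each transcript. The study's methods give ribosomal RNA depletion, whereas the labels' molecule field gives polyA RNA.

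Estimated counts were summed per gene over 57180 genes and rounded. Genes with at least 10 counts in total (25446) entered 1 edgeR 4.0.16 quasi-likelihood fit of the 4 groups in R 4.3.3, with TMM factors and Benjamini-Hochberg adjustment, which was tested on simulated data. The difference between states was called at the adjusted p alone. SE is the absolute log2 fold change over the square root of F, and intervals use a normal approximation. Summed counts change with transcript lengths, so tximport-style length offsets were among the alternatives, with DESeq2 1.42.0, other scalings and filters, a replicate block and each library left out. Values in every library are given for members called in 3xKD against Neg, for the 3 largest called changes of each class in the Neg transition and for members whose effect differed between states. Of each related list, the 2 largest called changes per direction are named, and *Kdm3a* besides. The members and lists were chosen with earlier results of these data known.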

Additional observations from a re-analysis of the deposited data

Results flagged for a closer look

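The effect of 3xKD against Neg differed between ESCs and EpiLCs for 11 members by the edgeR quasi-likelihood test of the difference itself (adjusted p under 0.01, EpiLCs minus ESCs on the log2 scale). The demethylases were *Kdm6b* (−1.24), *Kdm4c* (−0.49), *Kdm2a* (−0.46), *Kdm5b* (−0.20), *Kdm3b* (0.29) and *Kdm1b* (0.41). The methyltransferases were *Suv39h1* (−0.79), *Setd7* (−0.67), *Ash1l* (−0.36), *Kmt2a* (−0.34) and *Setdb1* (0.24). With transcript-length offsets *Kdm6b* (−1.24, adjusted p = 2.3e-06), *Suv39h1* (−0.80, adjusted p = 0.00034), *Setd7* (−0.71, adjusted p = 0.00047) and *Kdm2a* (−0.57, adjusted p = 0.0079) were called, and the other 7 were not. Their estimates with offsets were −0.41 for *Kmt2a*, −0.40 for *Ash1l*, 0.82 for *Kdm1b*, −0.23 for *Kdm5b*, 0.30 for *Kdm3b*, 0.21 for *Setdb1* and −0.31 for *Kdm4c*, with adjusted p from 0.011 for *Kdm3b* to 0.41 for *Kdm4c*.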

How the results depend on the processing

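Of 39 called member values, 23 were called under every one of the alternatives run (23, or 22 for the difference between states), 16 were lost under at least 1 and none reversed, while 30 of the values not called changed sign somewhere. With an adjusted p under 0.05 and no fold limit, 20 methyltransferases and 7 demethylases were called in 3xKD against Neg ESCs, 19 and 11 in EpiLCs, 21 and 10 in the Neg transition and 18 and 10 in the 3xKD transition. At that setting 10142, 9694, 11231 and 10838 of all 25446 genes were called in the same order. In EpiLCs 3 methyltransferases were called with library size alone and 3 with no filter, and 1 demethylase, *Kdm2a*, with transcript-length offsets, which left 2 methyltransferases and 2 demethylases in the difference between states. Over all genes, library size alone moved the share of higher calls in that difference from 47.4% to 64.9%. *Kmt5c* in ESCs was not called by DESeq2 (0.58), with RLE factors (0.58), filterByExpr (0.58), library size alone (0.57) or only the 2 groups (0.57). Isoform counts were 9, 10, 5 and 2 at a limit of 5 percentage points and 0, 0, 1 and 0 at 20. The share over all genes was computed at the limit of 10 only, so these counts have no background. Leaving out single libraries gave 2 to 5 methyltransferases in 3xKD against Neg ESCs.

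Same-numbered libraries deviated together with correlations of −0.135 to 0.0999 and differently numbered ones with −0.146 to 0.181, so no shared deviation by number was seen. So few libraries cannot tell whether equal numbers mark a shared culture. With a replicate block the counts of methyltransferases and demethylases were 4 and 2 in ESCs, 6 and 0 in EpiLCs, 6 and 4 in the Neg transition, 4 and 2 in the 3xKD transition and 5 and 5 for the difference, where *Kdm5b* (−0.20) was lost. Of all 25446 genes, 3792, 3277, 5169, 4664 and 2321 were called with the block in the same order.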
